A study of Drosophila melanogaster with 24 samples.

Results

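The dopamine, serotonin and octopamine receptor genes examined here are 9 genes that encode receptors for biogenic amines: *Dop1R1*, *Dop1R2* and *Dop2R* for dopamine, *Oamb* for octopamine, and *5-HT1A*, *5-HT1B*, *5-HT2A*, *5-HT2B* and *5-HT7* for serotonin. They were taken as a list of names and found by symbol in a gene table of the Release 6 genome assembly, where all 9 matched a single entry among 13911 protein-coding genes (17673 genes of all kinds). The rule uses names and positions and no measured value. Binding of Cap-G, a non-SMC subunit of the condensin I complex, was read over the span of each gene and over 5 kb on either side.

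Cap-G binding was profiled by Targeted DamID in brains dissected from 3rd instar *Drosophila melanogaster* larvae. In this method a protein fused to the bacterial methylase Dam marks GATC sites near the places it contacts, and the marked DNA is amplified and sequenced without sorting the cells. *UAS-Cap-G-Dam* was compared with *UAS-LT3-NDam*, which makes Dam alone, and 12 samples of 30 brains each were used, 2 per construct for each of 3 drivers. The drivers were *wor-GAL4* for neural stem cells (NSCs), *elav-GAL4* for immature together with mature neurons (elav neurons) and *nSyb-GAL4* for mature neurons (nSyb neurons). All of these animals carried *tub-GAL80ts*, a temperature-sensitive block on GAL4, and were kept at 18 °C and moved to 29 °C for the last 24 h. The cell types overlap, since *elav-GAL4* covers the cells that express *nSyb-GAL4*. Each is defined by its driver and could not be checked against marker genes, because a binding ratio does not measure expression.

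Each value is the log2 Cap-G-Dam/Dam ratio of a stretch of DNA between neighbouring GATC sites, called a fragment here. The authors averaged the replicates, so that there is 1 track per cell type. No replicate error, p-value or test could be had for any value given here, and a difference between cell types cannot be set against the spread between replicates. Values above 0 stand for methylation in excess of that left by Dam on its own. A lower ratio can come from less Cap-G-Dam or from more Dam-only methylation, and these cannot be told apart in the averaged tracks. The 3 tracks share one set of 373710 fragments with a median length of 196 bp, and their SD over fragments was 0.30, 0.46 and 0.36 in NSCs, elav and nSyb neurons. Since the spread differed between tracks, gene values were also scaled, as the distance from the median protein-coding gene in units of a robust SD over these genes. A scaled value of 1 is therefore 1 such SD above the median gene of the same cell type.

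Amine receptors are G-protein-coupled receptors with a membrane-spanning core. Dopamine, octopamine and serotonin are released by small groups of neurons whose axons reach much of the fly brain, and their receptors on target neurons change the level of cyclic AMP or of calcium rather than opening an ion channel directly. In flies these receptors act in olfactory learning, arousal, sleep, feeding and courtship, and several of them are abundant in the mushroom body, a centre of associative memory. Octopamine takes the part in insects that noradrenaline plays in vertebrates.

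The receptor genes are long. They spanned 10318 to 58027 bp with a median of 48640 bp, against a median of 2161 bp for all protein-coding genes, and 8 of the 9 (all but *5-HT1B*) belonged to the longest decile of genes, those of at least 14601 bp. There were 6 on chromosome arm 3R, 2 on 2R and 1 on X. They held 606 fragments in all, with a median length of 392.5 bp and 1.68 fragments per kb, against 2.79 per kb in the genome. Values for the receptor genes were therefore also placed among genes of the same decile of length.

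Averaged over each receptor gene, the ratio lay close to 0 in NSCs and below 0 in nSyb neurons at every gene but *5-HT2A*. In NSCs the gene means ran from -0.04 to 0.03 with a median of 0.00. They ran from -0.21 to 0.49 with a median of -0.06 in elav neurons. The nSyb means ran from -0.37 to 0.14 with a median of -0.22. In NSCs 6 of the 9 were below 0, as were 50.4% of all protein-coding genes, but 2 with the unweighted median of fragments in place of the length-weighted mean. In elav neurons 6 were below 0 against a background of 41.3%, but 4 with the unweighted median. In nSyb neurons 8 were below 0 against 49.4%, and also 8 with the unweighted median. The background shares are those of length-weighted means. The position of the genes among all protein-coding genes went from percentiles of 40.1 to 59.2 in NSCs to percentiles of 10.3 to 29.9 in nSyb neurons for the 8 genes other than *5-HT2A*.

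**Figure D1:**
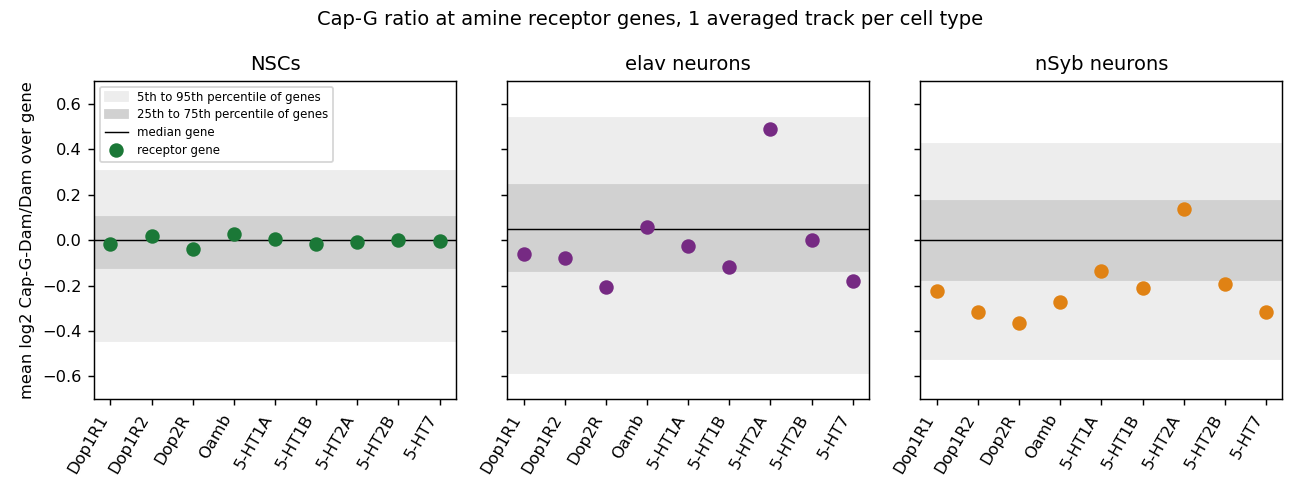
Mean log2 Cap-G-Dam/Dam over the span of each receptor gene (points) in 1 averaged track per cell type, with the middle ranges of all 13911 protein-coding genes as grey bands and their median as a line. The points lie between -0.04 and 0.03 in NSCs, and in nSyb neurons 8 of 9 lie below 0, with *5-HT2A* at 0.14.

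The same pattern was present at the level of fragments. Among the 606 fragments, 277 (45.7%) exceeded 0 in NSCs, 226 (37.3%) did so in elav neurons, and 115 (19.0%) did with the nSyb driver. Over the genome the shares were 46.8%, 52.4% and 52.0%. Neighbouring fragments are not independent measurements, since the correlation of adjacent fragments was 0.75 to 0.79 in the 3 tracks. The single gene *5-HT2A* supplied 43 of the 115 fragments above 0 in nSyb neurons.

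Some stretches of the genes were listed at 0 throughout. Fragments listed at exactly 0 in all 3 tracks numbered 69 of 606, of which 34 were in *Dop1R1*, 22 in *5-HT2B*, 7 in *Dop2R* and 3 each in *Dop1R2* and *5-HT2A*. In *5-HT2B* they formed 1 stretch of 6679 bp at chr3R:8602804-8609483 (coordinates are of Release 6 throughout), and in *Dop1R1* the longest covered 4773 bp at chr3R:14197822-14202595. They made up 18.4% of the span of *Dop1R1* and 12.9% of that of *5-HT2B* and were kept as 0, which draws the means of these 2 genes towards 0.

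The dopamine receptors of flies include relatives of the mammalian D1 class and of the D2 class. *Dop1R1* (FBgn0011582, chr3R:14165379-14214810) encodes the D1-like receptor that raises cyclic AMP and is needed in the mushroom body to form olfactory memories. Its mean was -0.02, -0.06 and -0.22 in NSCs, elav and nSyb neurons, at percentiles of 45.1, 33.0 and 20.0. In nSyb neurons 6 of its 86 fragments were above 0, and these held both the highest value, 1.09 at chr3R:14186285-14186533, and a run of 4 fragments at chr3R:14185072-14186533 with a mean of 0.35. The fragment that was highest in nSyb neurons was among the lowest of the gene in elav neurons, at -1.10, and stood at 0.23 in NSCs. The lowest nSyb value of the gene, -1.33, was close by at chr3R:14188572-14188857.

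Within *Dop1R1* a part around 12 kb from the lower-coordinate end differed in sign between the neuronal tracks. The fragment at chr3R:14177477-14177648 stood at 0.05, 0.99 and -0.88 in NSCs, elav and nSyb neurons. The elav value is the highest of the gene and the nSyb value one of its lowest. Beyond the higher-coordinate end, the 5 kb flank had means of 0.08, 0.34 and 0.11, the highest flank of any receptor gene in elav and nSyb neurons. A region called as bound in elav neurons (3043 bp, mean 0.75) and nSyb neurons (3130 bp, mean 0.63) began in that flank. It began 4317 bp from the gene, so most of it lay beyond the flank. It lay over *CG31326*, *CG33109* and *Sp212* and was not assigned to the receptor gene because other genes stand in between.

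*Dop1R2* (FBgn0266137, chr3R:29630304-29659984), also known as DAMB, encodes a second D1-like receptor, which signals through calcium and acts in the active forgetting of olfactory memories. Its mean was 0.02, -0.08 and -0.31 in NSCs, elav and nSyb neurons. Of its 57 fragments, 38 were above 0 in NSCs and 11 in nSyb neurons, and 90.2% of its span lay in fragments below 0 in nSyb neurons. The third of its 5 equal parts was the lowest in elav neurons (-0.19) and in nSyb neurons (-0.70), but stood at 0.06 in NSCs, where the first part was lowest at -0.02. The lowest fragment there, at chr3R:29646370-29646784, read 0.21, -0.59 and -1.92 in NSCs, elav and nSyb neurons. One short fragment at chr3R:29641170-29641370 was the highest of the gene in both NSCs (0.47) and nSyb neurons (0.33) and stood at 0.35 in elav neurons, so it was above 0 in all 3 cell types.

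*Dop2R* (FBgn0053517, chrX:20004680-20062706) encodes the D2-like receptor, which lowers cyclic AMP and serves on some dopamine neurons as an autoreceptor. It had the lowest mean of the 9 in every cell type, with -0.04, -0.21 and -0.37 in NSCs, elav and nSyb neurons. These lay at percentiles of 40.1, 19.4 and 10.3 among all genes, and the nSyb value at a percentile of 3.49 among genes of its length. It is also the only one on the X, where the median gene stood at -0.02, -0.01 and -0.07 in the 3 tracks. The median of all protein-coding genes was -0.001, 0.05 and 0.00, higher than that of the X in each track. The place of *Dop2R* among genes of the X was not taken, and any part of the arm in its values was not tested. In nSyb neurons 6 of its 103 fragments were above 0, and 44 fragments in a row, at chrX:20006796-20030621, were below 0 with a mean of -0.43.

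One fragment in *Dop2R* held opposite extremes in stem cells and mature neurons. The fragment at chrX:20052975-20053360 had the highest value of the gene in NSCs, 0.95, and the lowest in nSyb neurons, -1.68, with -0.68 in elav neurons. It lies beyond the end of *CG9570*, a gene nested within *Dop2R* at chrX:20051294-20052519, over which the means were 0.06, -0.31 and -0.62. The nested gene therefore had the same order of the cell types, with smaller values.

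*Oamb* (FBgn0024944, chr3R:20689018-20714577) encodes an octopamine receptor that resembles alpha-1 adrenergic receptors, raises calcium, and is required in the mushroom body for appetitive learning and in the oviduct for ovulation. Its mean was 0.03, 0.06 and -0.27 in NSCs, elav and nSyb neurons, the highest of the 9 in NSCs and second to *5-HT2A* in elav neurons. In nSyb neurons 2 of its 49 fragments were above 0, and 97.4% of its span lay in fragments below 0, the largest share of any of the receptor genes. Its run of 35 consecutive fragments below 0 covered chr3R:20694407-20715561 at a mean of -0.35. The higher-coordinate flank of *Oamb* was lower still in nSyb neurons, at -0.62, and stood at 0.11 in NSCs and -0.02 in elav neurons.

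*Oamb* too held a fragment with opposite extremes. At chr3R:20699542-20700101, one fragment had the highest value of the gene in NSCs (0.56) and the lowest of the gene in both elav neurons (-0.68) and nSyb neurons (-1.30). The 7 fragments around and including it, chr3R:20698549-20700314, had means of 0.36, -0.29 and -1.09. All 7 were above 0 in NSCs, which follows from the choice of the stretch as a region called there. In nSyb neurons they ran from -1.30 to -0.66. This stretch passed the FDR of 1% as a bound region in NSCs but not the FDR of 0.01% used for the main calls. No other annotated gene overlaps it.

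**Figure D2:**
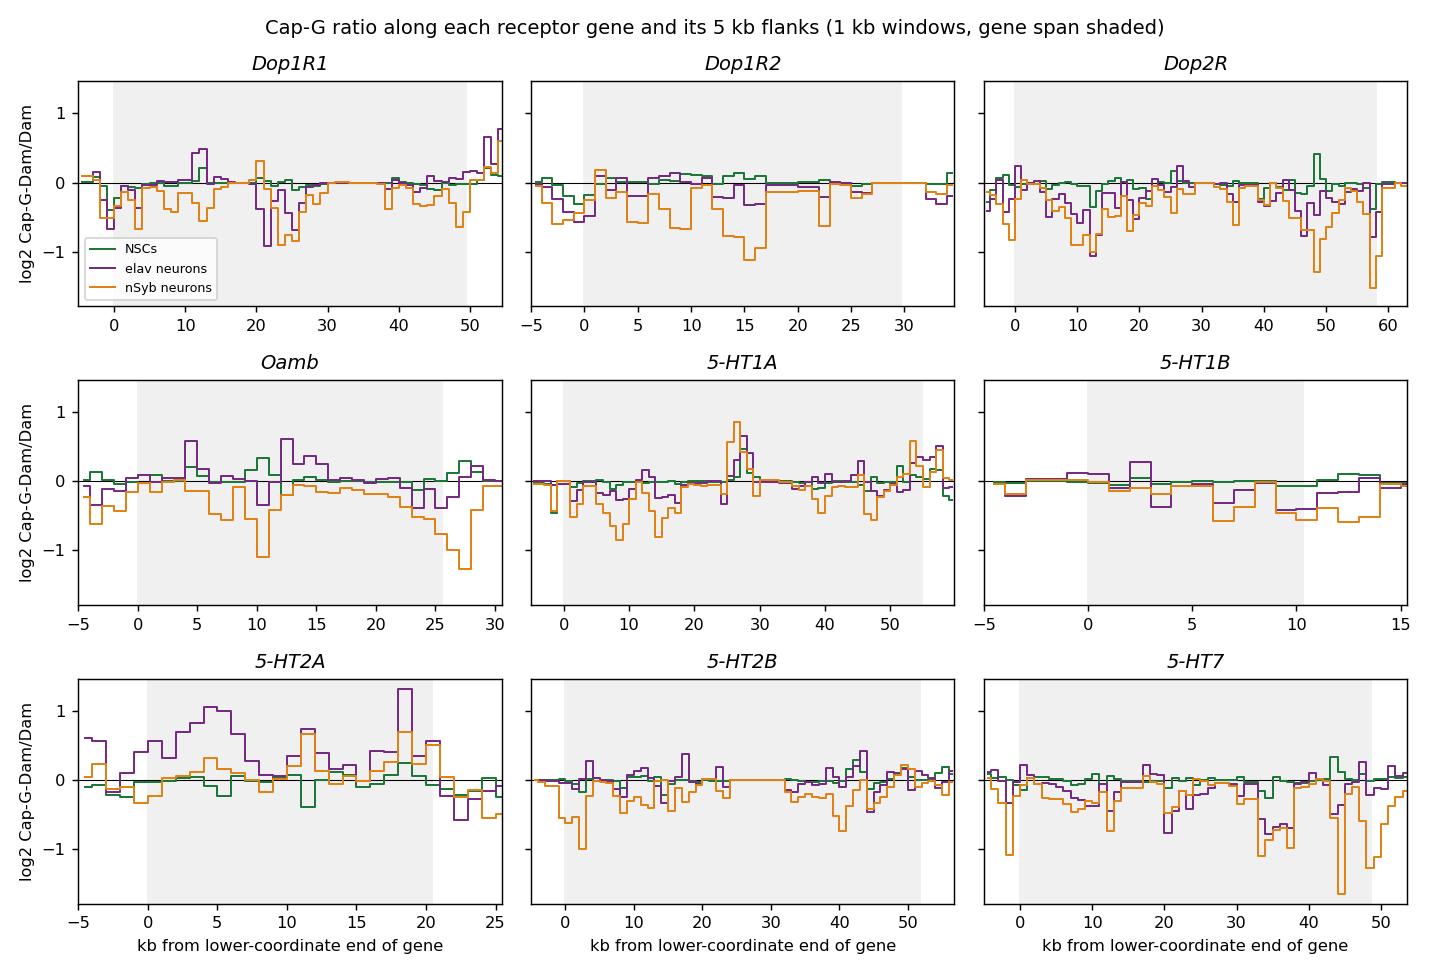
Mean log2 Cap-G-Dam/Dam in windows of 1 kb along each receptor gene (shaded) and its 5 kb flanks, by distance in kb from the lower-coordinate end, with 1 line per cell type. The nSyb line runs below 0 over most of every gene except *5-HT2A*, while the NSC line runs between -0.45 and 0.47, with its highest window in *5-HT1A*, and the stretches where all lines lie flat at 0 in *Dop1R1* and *5-HT2B* hold fragments listed at 0 in every track.

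The serotonin receptors fall into classes named after their mammalian relatives. *5-HT1A* (FBgn0004168, chr2R:19067155-19121958) and *5-HT1B* (FBgn0263116, chr2R:19022325-19032642) encode receptors that lower cyclic AMP, the first known for its part in sleep and aggression and the second for its part in the circadian response to light. The 2 genes are neighbours on the arm, with 34512 bp between them. The mean of *5-HT1A* was 0.00, -0.02 and -0.14 in NSCs, elav and nSyb neurons. That of *5-HT1B*, the shortest of the receptor genes with 14 fragments, was -0.02, -0.12 and -0.21. The DNA between them, with 51 fragments, had means of -0.03, -0.07 and -0.17, in the same order as the genes on either side.

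Within *5-HT1A* one stretch near the middle stood out from the rest of the gene. The longest run of fragments above 0 in both neuronal tracks was the 9 at chr2R:19092469-19095922. Its mean was 0.47 for the elav driver and 0.65 for the nSyb driver. The longest run below 0 in nSyb neurons was the 22 fragments before it, with a mean of -0.31. Both runs were picked by sign, so the opposite signs follow from the choice. Of 5 equal parts of the gene, the third alone was above 0 in nSyb neurons, at 0.14, with 0.06 in NSCs and 0.10 in elav neurons. At an FDR of 1% this stretch held a bound region in elav neurons (chr2R:19094030-19095542, mean 0.71) and one in nSyb neurons (chr2R:19092469-19095542, mean 0.73). Both overlap *Ir56a*, a chemosensory receptor gene of the ionotropic family nested in *5-HT1A* at chr2R:19094267-19096174, over which the means were 0.28, 0.53 and 0.29. The nSyb region also holds the fragment chr2R:19092469-19094030, which is 1561 bp long and ends before *Ir56a* starts. It read 0.03, 0.29 and 0.93 in NSCs, elav and nSyb neurons, the last being the highest nSyb value of *5-HT1A*. Whether the signal belongs to the nested gene or to *5-HT1A* cannot be told apart. A region past the FDR of 0.01% in nSyb neurons, chr2R:19124349-19125134, lay 2391 bp beyond the end of *5-HT1A* over *CG15117* and was not assigned to it.

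*5-HT2A* (FBgn0087012, chr3R:4612870-4633304), whose product signals through calcium, was the exception among the receptor genes. Its mean was -0.01, 0.49 and 0.14 in NSCs, elav and nSyb neurons, at percentiles of 48.1, 93.4 and 71.0 among all genes and of 54.2, 98.3 and 84.6 among genes of its length. Of its 54 fragments, 31 were above 0 in NSCs, 47 with the elav driver and 43 with the nSyb driver. Each of 5 equal parts of the gene was above 0 in elav neurons, from 0.18 to 0.71, while they ran from 0.00 to 0.36 in nSyb neurons and from -0.11 to 0.11 in NSCs. The lower-coordinate flank was also above 0 in elav neurons, at 0.30, while the higher-coordinate flank stood at -0.20.

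Bound regions were called at *5-HT2A* in neurons and at no other receptor gene at an FDR of 0.01%. In elav neurons there were 3. One of 9 fragments near the higher-coordinate end, chr3R:4630718-4632148, had a mean of 0.26, 1.28 and 0.67 in NSCs, elav and nSyb neurons, and was called with the same limits in nSyb neurons. One of 8 fragments nearer the lower-coordinate end, chr3R:4615780-4619564, averaged -0.05, 0.93 and 0.19 in NSCs, elav and nSyb neurons and was called in elav neurons alone. The third lay 2996 bp before the lower-coordinate end, chr3R:4606489-4609874, with means of 0.09, 0.57 and 0.24. It overlaps no annotated gene. Between the regions lay the fragment with the highest nSyb value of the gene, chr3R:4624052-4624654, which read 0.93 there, 0.86 in elav neurons and -0.46 in NSCs.

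**Figure D3:**
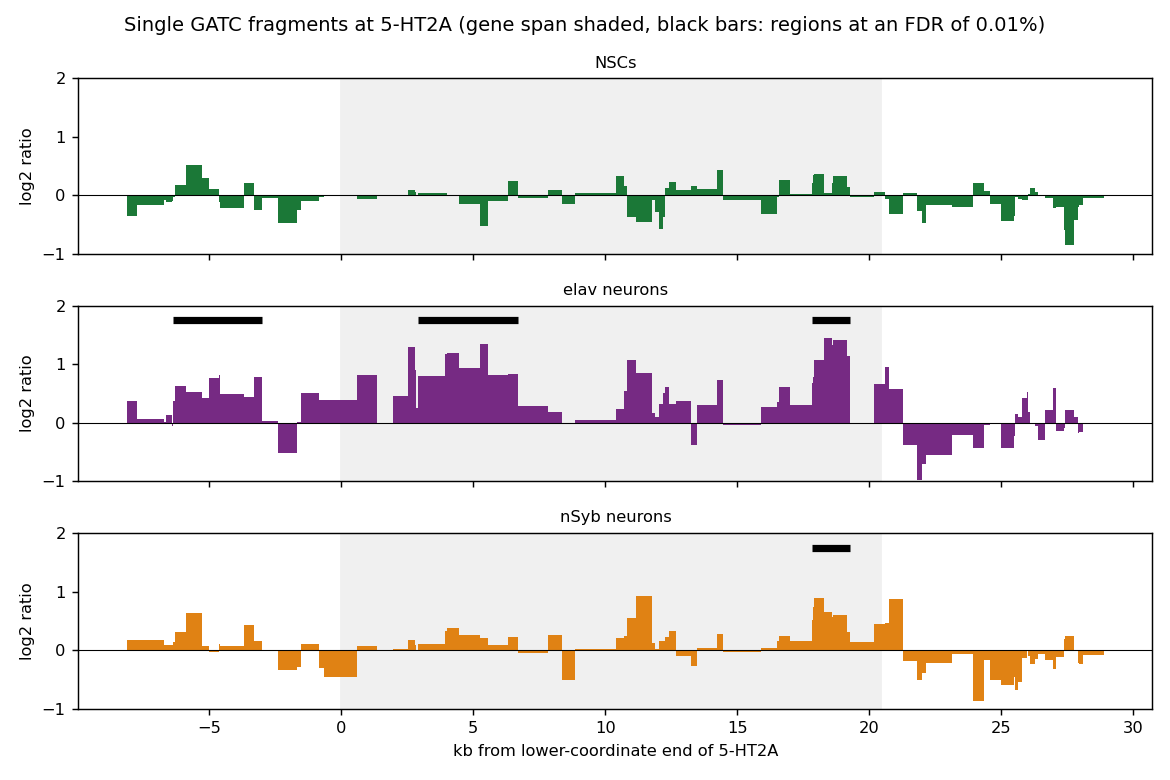
Log2 Cap-G-Dam/Dam of single GATC fragments at *5-HT2A* (shaded) and its surroundings in NSCs, elav neurons and nSyb neurons, by distance in kb from the lower-coordinate end, with black bars for regions called at an FDR of 0.01%. There are 3 bars in elav neurons, 1 in nSyb neurons and none in NSCs, and the shared bar has a mean of 1.28 in elav neurons and 0.67 in nSyb neurons.

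*5-HT2B* (FBgn0261929, chr3R:8578205-8629996), the other receptor of this class, did not share the pattern. Its mean was 0.00, 0.00 and -0.20 in NSCs, elav and nSyb neurons, at percentiles of 50.3, 42.5 and 22.7. In nSyb neurons 15 of its 91 fragments were above 0. Its lowest nSyb value, -1.78, was at the lower-coordinate end itself, at chr3R:8577934-8578291, where NSCs stood at 0.08 and elav neurons at -0.15. A run of 18 fragments below 0 followed from there with a mean of -0.37.

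*5-HT7* (FBgn0004573, chr3R:30968236-31016875) encodes a receptor that raises cyclic AMP and has been linked to courtship and learning. Its mean was 0.00, -0.18 and -0.31 in NSCs, elav and nSyb neurons. In elav neurons 20 of its 85 fragments were above 0, and in nSyb neurons 11, against 52 in NSCs. The fragment at chr3R:31012543-31012832 read 0.26, -0.69 and -2.17 in NSCs, elav and nSyb neurons, the last being the lowest value of any fragment of the receptor genes. The flank next to it beyond the gene stood at -0.57 in nSyb neurons, with 0.03 in NSCs and 0.01 in elav neurons. *5-HT7* holds 2 nested protein-coding genes, *CG31008* and *CG31007*, over which the means were 0.03 and 0.04 in NSCs and -0.38 and -0.14 in nSyb neurons.

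The order of the receptor genes in nSyb neurons, from low to high, was *Dop2R* (-0.37), *5-HT7* (-0.31), *Dop1R2* (-0.31), *Oamb* (-0.27), *Dop1R1* (-0.22), *5-HT1B* (-0.21), *5-HT2B* (-0.20), *5-HT1A* (-0.14) and *5-HT2A* (0.14). Without replicate values it cannot be said which neighbours in this order differ beyond their spread. In this order *Dop1R1* and *5-HT7*, described above as raising cyclic AMP, stood above *Dop2R* and below *5-HT1A* and *5-HT1B*, described as lowering it. The other receptors were not sorted by their effect on cyclic AMP. Whether the values differ with the class of G protein was not tested. Of the 18 flanks of 5 kb, 16 were below 0 in nSyb neurons (-0.62 to 0.11), 13 in elav neurons and 10 in NSCs; flanks of other genes were not counted. The signs of gene and flank did not always match, since both nSyb flanks of *5-HT2A* were below 0 (-0.06 and -0.16), and the 2 flanks above 0 were the higher-coordinate ones of *Dop1R1* (0.11) and *5-HT1A* (0.10).

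The change between cell types was then taken on the scaled values. These 3 comparisons share tracks with each other, so they are not independent. From NSCs to elav neurons 8 of the 9 receptor genes were lower, against 47.5% of all protein-coding genes, with a median difference of -0.31 (all genes 0.05), or -0.57 with the flanks included. None was lower by more than 1, as 12% of all genes and 2.01% of the longest decile were. The lowest difference was that of *5-HT7* at -0.81. This depended on the setting, since *5-HT7* stood at -1.12 with unweighted medians. With the flanks included, *5-HT7* stood at -1.09 and *Dop2R* at -1.02. *5-HT2A* was the one higher gene, with a difference of 1.59, higher than that of 92.9% of all genes and of 98.7% of genes of its length.

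From elav to nSyb neurons all 9 were lower, *5-HT2A* included, against 51.8% of all genes. The median difference was -0.51, or -0.29 with unweighted medians, where that of all genes was -0.04. With unweighted medians *Dop1R1* was the exception, at 0.22 in place of -0.46. *Oamb* at -1.08 and *5-HT2A* at -1.02 were lower by more than 1, which was the case for 12.5% of all genes and 8.63% of the longest decile. *Oamb* stood at -0.85 with unweighted medians and *5-HT2A* at -0.96 with fragments of 200 to 2000 bp, so neither passed 1 under every setting. On unscaled log2 ratios, 47 of 49 fragments of *Oamb* and 45 of 54 of *5-HT2A* were lower in nSyb than in elav neurons. The elav track lay higher, with the median gene at 0.05 against 0.00, and the share over all fragments was not taken. Of the longest decile of genes 57.7% were lower on the scaled values, so that long genes as a class leaned the same way.

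From NSCs to nSyb neurons 8 of 9 were lower, against 48% of all genes and 51.5% of the longest decile. The median difference was -0.77, where that of all genes was 0.04. It was -0.365 with unweighted medians and -1.18 with the flanks included, and 8 of 9 genes were lower in either case. *Dop1R2* (-1.35), *Oamb* (-1.23), *Dop2R* (-1.21) and *5-HT7* (-1.20) were lower by more than 1, as were 11.1% of all genes and 7.55% of the longest decile. *5-HT2A* was higher by 0.57. Fragments were again counted on unscaled ratios, without a share over all fragments. At *Oamb* 46 of 49 were lower in nSyb neurons than in NSCs, at *Dop2R* 86 of 103, at *Dop1R2* 48 of 57 and at *5-HT7* 74 of 85.

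**Figure D4:**
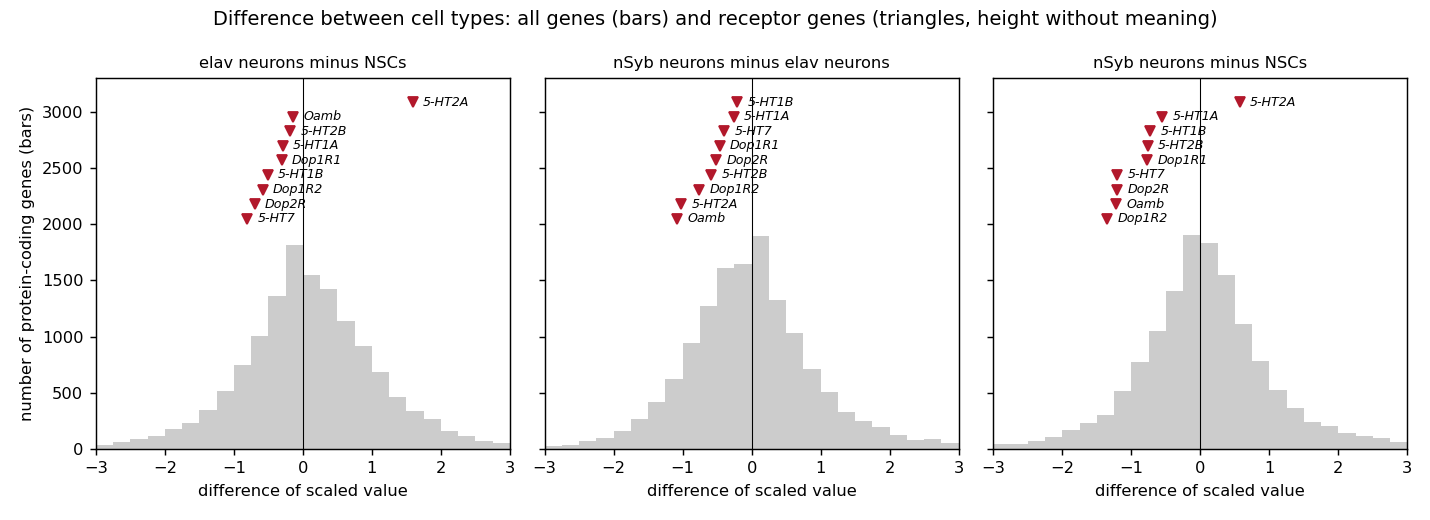
Differences of the scaled gene value between cell types for all protein-coding genes (grey bars, number of genes, axis limited to -3 to 3) and for the receptor genes (triangles, whose height carries no meaning). From NSCs to nSyb neurons 8 of 9 triangles lie below 0, down to -1.35 at *Dop1R2*, and from NSCs to elav neurons *5-HT2A* stands at 1.59.

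At an FDR of 0.01% no receptor gene was bound in NSCs, against 7.84% of all protein-coding genes, and 1 each was bound in elav neurons (10.5%) and nSyb neurons (9.39%), *5-HT2A* in both. At an FDR of 1% there were 2 in each: *Oamb* and *5-HT7* in NSCs against 24% of all genes, and *5-HT1A* and *5-HT2A* with the elav driver (25.3%) and with the nSyb driver (26%). The region at *5-HT7* in NSCs is 250 bp long with a mean of 0.18. Of its 6 fragments, 5 measure 6 to 24 bp and carry one identical value, 0.20, so they do not count as separate measurements. These shares cover genes of all lengths. A longer gene offers more room for a region, and the share of bound genes among genes of the same length was not taken. Counts of 0 to 2 among 9 genes therefore have no background matched for length.

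The receptors' partners gave a comparison with the same pathway. The other amine receptors are 8 genes (*DopEcR*, *Octbeta1R*, *Octbeta2R*, *Octbeta3R*, *Octalpha2R*, *Oct-TyrR*, *TyrR* and *TyrRII*), with medians of 0.03, 0.01 and -0.21 in the order NSCs, elav and nSyb neurons. All 8 were below 0 in nSyb neurons, against 49.4% of all protein-coding genes. They ran from *Octbeta1R*, an octopamine receptor of the beta-adrenergic type, at -0.44 to *TyrRII*, a tyramine receptor, at -0.07. All 8 had a lower scaled value in nSyb neurons than in NSCs, against 48% of all genes, with a median difference of -0.95. They thus lay on the same side as 8 of the 9 receptor genes described above, and none rose from NSCs to nSyb neurons like *5-HT2A*. With the elav driver 7 of the 8 had a lower scaled value than in NSCs (median difference -0.30), against 47.5% of all genes. *DopEcR* went from a percentile of 64.7 in NSCs to 70.1 with the elav driver, where its mean was 0.20. At an FDR of 0.01% 1 of the 8 was bound, with the nSyb driver (9.39% of all genes). At an FDR of 1% there were 0 in NSCs (24% of all genes), 3 with the elav driver (25.3%) and 2 with the nSyb driver (26%). These shares are not matched for length.

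The genes for making and moving the amines lay mostly above 0. The 10 genes of amine synthesis and transport had medians of 0.16, 0.30 and 0.36, and 9 of 10 were above 0 in nSyb neurons. On the scaled values, however, 7 of the 10 were lower in elav neurons than in NSCs (median difference -0.27). The count was also 7 from NSCs to nSyb neurons (median difference -0.30). The medians of the list are unscaled log2 ratios, and the robust SD used for scaling was 0.17, 0.28 and 0.26 in the 3 tracks. Scaled and unscaled values therefore need not rank the cell types alike. In nSyb neurons the highest was *Trhn*, the neuronal tryptophan hydroxylase that starts serotonin synthesis, at 0.50. The lowest was *Tbh*, the tyramine hydroxylase that makes octopamine, at -0.20. These genes are mostly shorter than the receptor genes, and *Tbh*, at 31698 bp, is the longest of them. The 16 genes of receptor signalling, the G proteins, cyclases, kinases and arrestin that act after the receptors, had medians of -0.06, 0.06 and -0.13. In nSyb neurons 14 of 16 were below 0, from *Pka-C1*, the catalytic subunit of protein kinase A, at -0.66 to *Galphai*, a G protein subunit that lowers cyclic AMP, at 0.21. From NSCs to elav neurons 1 of the 16 had a lower scaled value (median difference 0.38), where 8 of the 9 receptor genes did. From NSCs to nSyb neurons 13 of the 16 were lower, with a median difference of -0.30, the same direction as 8 of the 9 receptor genes. For the counts of both lists, 49.4% of all protein-coding genes were below 0 in nSyb neurons. Scaled values were lower at 47.5% of all genes from NSCs to elav neurons and at 48% from NSCs to nSyb neurons.

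Genes with the pattern most like each receptor gene were sought over the 3 scaled values among 11529 other genes. *Dop1R1* lay nearest to *CG42613* and *5-HT1B* to *smog*, a gene for another G-protein-coupled receptor. *Dop1R2* lay nearest to *jeb*, which encodes a secreted ligand of the receptor Alk, with -0.30 in nSyb neurons. *5-HT2A* lay nearest to *Tbce*, with -0.02, 0.51 and 0.14 in the 3 tracks. Its closest receptor gene was *5-HT1A* at a distance of 2.12, and 6259 of the 11529 genes were closer. For the other 8, the closest receptor gene lay at 0.21 to 0.39, with 35 to 121 genes closer. With 3 values per gene, this likeness describes the averaged tracks only.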

How the data were processed

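Cap-G-Dam and Dam-only samples of 30 larval brains were sequenced for 3 drivers, 2 samples per construct. Per the labels and the study's methods, the authors mapped 50 bp reads with Bowtie2 to BDGP6 (release 6.03), binned them by GATC fragment, normalised Cap-G-Dam to Dam-only and deposited log2 ratios averaged over replicates. Neither the way the average was formed nor any depth per sample is given in the sources used here. RNA-seq samples (12) were not analysed.

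Gene values are length-weighted means of the fragments that meet the gene. Scaling used the median and the median absolute deviation of protein-coding genes. Regions were runs of at least 2 fragments above the 0.8, 0.85, 0.9, 0.95 or 0.99 quantile, whose expected number in random order gave the FDR of 0.01%, the study's level. They were called on the average with a program other than the study's, and the caller was tested on simulated data. Both the expected number and the simulated tracks took fragments as independent. Adjacent fragments of the real tracks correlated at 0.75 to 0.79. The FDR is therefore nominal, and the simulation cannot show its error rate in these data. A gene counted as bound where a region overlapped it or lay at most 5 kb away without another gene in the gap. The gene table holds no strand, exons or sequence, so ends are named by coordinate, and the promoter and protein comparison was not run.

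Members and lists were chosen with earlier results of these data known. Named genes were the 9 members, the gene nearest to each over the scaled values among genes with at least 5 fragments, the highest and lowest of each list in nSyb neurons, and neighbours on which a region turns. Fragments within members were named for their extreme values, and runs as the longest above or below 0, after these were seen. The tolerance of 0.05 for a value was also set after the files were seen. The alternatives were the unweighted median, 5 kb added on each side, fragments at 0 left out, fragments of 200 to 2000 bp, percentiles, genes of the same length, an FDR of 1%, at least 4 fragments, higher quantiles, overlap only, and protein-coding neighbours. Software: matplotlib 3.10.9, scipy 1.17.1, pandas 2.3.3 and numpy 2.4.6 under Python 3.11.15.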

Additional observations from a re-analysis of the deposited data

How the results depend on the processing

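No paired analysis was possible because each track is 1 average over replicates, and leaving out a replicate was not run for the same reason. No value past 1 scaled unit reversed under the alternatives tried. The difference of *Dop1R1* from elav to nSyb neurons, -0.46, became 0.22 with unweighted medians. Of the summary values 54 stayed within the tolerance and 15 moved. Some counts of genes among the 54 still changed with unweighted medians. Genes below 0 in elav neurons went from 6 to 4, and genes lower from elav to nSyb neurons from 9 to 8. With the unweighted median of fragments, 2 genes were below 0 in NSCs, the median over the receptor genes was 0.00 for the elav driver and -0.076 for the nSyb driver, and the median scaled difference was -0.29 from elav to nSyb neurons and -0.365 from NSCs to nSyb neurons. With 5 kb added on each side, the median scaled difference was -0.57 from NSCs to elav neurons, -0.74 from elav to nSyb neurons and -1.18 from NSCs to nSyb neurons. Without the fragments at 0 in all tracks, it was -0.58 from elav to nSyb neurons and -0.93 from NSCs to nSyb neurons, and with fragments of 200 to 2000 bp the latter was -0.87. Among the longest decile of genes, 57.7% were lower in nSyb than in elav neurons. At an FDR of 1%, 2 receptor genes were bound in each cell type. The cause of these shifts was not tested. Of the values for single genes, 143 stayed within the tolerance and 100 moved. The number of averaged replicates and the unknown depth limit all values.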
